A study of Mus musculus with 16 samples.

Results

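Red cells with high Lgr5-EGFP from the mouse duodenum were compared between 2 transgenic lines, one expressing TdTomato-BRAF(V600K) and one TdTomato-luciferase, a control protein with no role in signalling. The samples were chosen by title: 3 BRAF(V600K)-RG arrays against 2 luc_control-RG arrays, 5 of the 16 arrays of the series. Each array holds the cells of 1 mouse, and the lines were compared unpaired because the mice differ. A gene was tested if a named probe lay above the array median on 2 or more of these 5 arrays, with the brightest such probe standing for the gene. This gave 9469 genes of the 16593 with a named probe.

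All mice were of a mixed B6/129S6 background, aged 8 to 12 weeks, and carried the Lgr5-EGFP reporter of intestinal stem cells. Both lines drank doxycycline at 4 mg/ml in 1% sucrose for 24 h to induce the transgene, so the controls received the same drug and also made a red protein. The RG gate took crypt cells high in green and in red, and the G gate took cells of the same mice high in green and low in red. The promoter that drives the transgenes, and the number of founder lines, are not given in the sources used here. Line and transgene cannot be told apart in this comparison.

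BRAF is the kinase that links RAS to MEK and ERK, and the V600K substitution leaves it active without RAS. Active ERK phosphorylates transcription factors and induces its own inhibitors, among them the DUSP phosphatases and the Sprouty proteins, so RNA of these feedback genes is a common readout of the pathway. In the crypt, Lgr5-positive stem cells divide under Wnt and EGF signals, and their daughters become absorptive cells where Notch is active or secretory cells where ATOH1 is made.

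The arrays are Illumina bead arrays, and the values are deposited intensities with medians between 119 and 119.8 on the 5 arrays. The lowest value in the table is 55.7, so background appears to be included, and differences of dim genes are then understated. A gene at or below the array median is called dim here. Across genes, which are not independent replicates, Pearson's r was 0.941 between the 2 luciferase RG arrays, 0.965 to 0.971 between BRAF RG arrays and 0.907 to 0.933 between the groups. The luciferase arrays had the lower estimated weight in the fit, 0.389 each against 0.693, 1.01 and 0.923 for the 3 BRAF arrays. The number of arrays limits the precision throughout. Braf was not analysed here, so RNA of the transgene itself was not checked.

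The gate label was set against Lgr5 RNA. Lgr5 intensity was 138 and 141 in luciferase RG and between 168 and 182.0 in BRAF RG. It was between 375 and 538 in luciferase G, between 244 and 596 in BRAF G, and between 167 and 363 in the BRAF NEG gate, which is low for both colours. Lgr5 RNA in the RG gate was therefore not above that of the NEG gate, although the gate was set on the EGFP reporter. Olfm4, another stem cell gene, behaved alike, with 2501 to 2818 in luciferase RG, 2519 to 3213 in BRAF RG, and 4517 to 4958 in luciferase G. The cells are therefore called RG cells below. Summed over 18 goblet cell genes, intensity was 69270 to 74470 in luciferase RG, 21810 to 37610 in BRAF RG and 13630 to 14110 in luciferase G. The luciferase RG arrays thus carried more goblet cell RNA than either of the other groups. The part of this gap in the other results was not tested. Every difference below compares sorted cell mixtures, in which fewer cells of a type and less RNA per cell cannot be told apart.

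BRAF RG cells had more RNA of members of the S100 and annexin families, 4 ERK output genes and 10 cell cycle genes than luciferase RG cells, and less RNA of 7 goblet genes, 4 enteroendocrine genes and the secretory fate factors Atoh1 and Gfi1. With limma, 577 genes passed (6.09% of those tested), 330 of them higher (3.49%) and 247 lower (2.61%), at a Benjamini-Hochberg adjusted p below 0.05. The median difference over all genes was -0.005 on the log2 scale. The BRAF and luciferase arrays did not overlap for any of the 577 called genes, and without overlap were also 24.1% of all tested genes on the higher side and 21.7% on the lower side. In 39 of the higher genes both luciferase arrays were dim, and in 39 of the lower genes all BRAF arrays were dim, so those differences are bounds. The largest rises and falls described next were picked among genes without overlap, so the gap between their groups is part of the choice. The counts rested on few arrays. Without BRAF RG replicate 2 they were 114 higher and 83 lower. Without luciferase RG replicate 1 or 2, at unchanged array weights, 45 and 45 were higher and 39 and 34 lower. When the weights were estimated again the single remaining luciferase array received a weight of 1.21, and 1286 or 1325 were higher and 1097 or 1160 lower. Among the 48 named genes that passed, S100a6, S100a11, Ddah1, Mcm2, Atoh1 and Gfi1 passed in every alternative that tested them, also with any single array left out.

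Mboat1, which encodes an acyltransferase of membrane phospholipids (chr13:30136451-30246694, GRCm38.p6), had the largest rise. Its intensity was 1019, 2339 and 838 on the BRAF RG arrays against 93.7 on luciferase RG replicate 2 and slightly more on replicate 1 (log2 mean 6.60, SD 0.07). Both luciferase arrays were dim, so the gene was at least 10.6-fold higher (log2 difference 3.76 ± 0.62 SE, n = 3 and 2, limma adjusted p = 0.00509). Ddah1, whose enzyme breaks down an inhibitor of nitric oxide synthase (chr3:145758692-145894277), gave 1082, 1179 and 844 against 103 and 114, at least 8.60-fold (3.24 ± 0.44, limma adjusted p = 0.00266). The 3 BRAF arrays lay close together for Ddah1, while replicate 2 stood above the others for Mboat1.

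S100a6, a small calcium-binding protein (chr3:90612894-90614414), had the lowest adjusted p of all genes. It was bright in both groups, with 6107, 7618 and 5073 on the BRAF arrays and 545 and 809 on the luciferase arrays. The difference was 9.38-fold (log2 3.23 ± 0.30, limma adjusted p = 9.2e-05). Tns4, a tensin of focal adhesions (chr11:99065678-99089306), gave 1029, 2193 and 786 against 148 and 121 (log2 3.23 ± 0.65, limma adjusted p = 0.0135). Tensins link integrins to the actin cytoskeleton.

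Atg9b, an autophagy membrane protein, gave 780.2, 1428 and 422 against 87.1 and 91.8, at least 6.52-fold. Lgals1, the secreted lectin galectin 1, gave 635, 1109 and 482.0 against 82.9 and 89.7, at least 5.86-fold. Phlda2, an imprinted gene for a small phosphoinositide-binding protein, gave 509.9, 1976 and 672 against 127 and 118 (log2 2.95 ± 0.64). Gprc5a, an orphan receptor induced by retinoic acid, gave 489, 1788 and 1348 against 142 and 121 (log2 3.14 ± 0.84). Their limma adjusted p-values lay between 0.0135 and 0.0378, and that of Gprc5a was 0.0705 after background subtraction. For Phlda2, 1 of the 2 luciferase arrays was dim. In each of these 4 genes BRAF replicate 2 was the highest array, as it was for Mboat1 and Tns4.

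**Figure D1:**
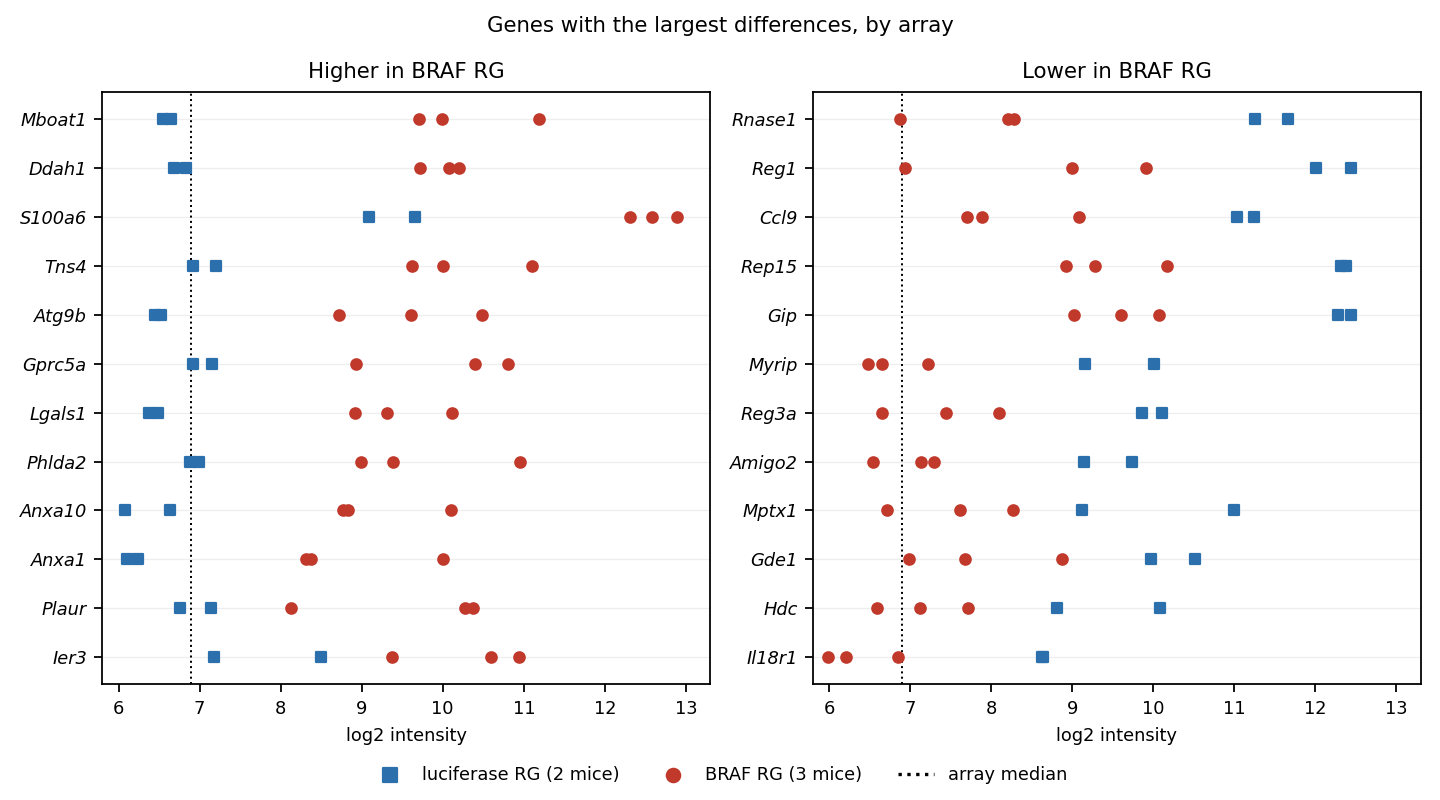
Log2 intensity of the 12 genes with the largest rise and the 12 with the largest fall in BRAF RG, 1 point per array, with squares for the 2 luciferase mice, circles for the 3 BRAF mice and a dotted line at the array median. The genes were picked among those whose circles and squares do not overlap, and 6 of the 12 rising genes have both squares at or left of the median line.

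Rnase1, a secreted ribonuclease (chr14:51145002-51146767), had the largest fall. It gave 118, 312 and 295 on the BRAF arrays against 2443 and 3230 on the luciferase arrays and fell by 3.57 on the log2 scale (SE 0.81, limma adjusted p = 0.0202). Reg1, a secreted lectin of the Reg family (chr6:78425983-78428668), gave 122, 509 and 964 against 5548 and 4104 and fell by 3.45 (SE 0.80, limma adjusted p = 0.0226). Its relative Reg3a gave 173, 101 and 273 against 932 and 1105. BRAF arrays of Reg1 spread over a wide range, with replicate 1 lowest.

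Rep15, an effector of the small GTPase Rab15, gave 622, 484 and 1155 against 5094 and 5304 (log2 -2.89 ± 0.49, limma adjusted p = 0.00591). Myrip, which links Rab27-bearing granules to myosin, gave 89.3, 100.3 and 149 against 1031 and 569 (-2.78 ± 0.42, limma adjusted p = 0.0038). Gde1, a glycerophosphodiester phosphodiesterase, gave 127, 205 and 467 against 1005 and 1468. BRAF replicate 3 was the highest of the 3 BRAF arrays in each of these genes.

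Hdc, the enzyme that makes histamine, gave 139, 96.5 and 210 against 1082 and 449. Amigo2, an adhesion protein, gave 140.2, 93.5 and 158 against 856 and 565. Il18r1, a receptor subunit for interleukin 18, was dim on all 3 BRAF arrays and stood at 395 and 399 on the luciferase arrays, at least 3.32-fold lower in BRAF (limma adjusted p = 0.0149). Of the 3 BRAF arrays, 1 was dim for Rnase1, Reg3a, Amigo2 and Hdc, and 2 were dim for Myrip. The call was lost for Rnase1, Reg1, Reg3a, Amigo2, Hdc and Il18r1 when background was subtracted, with adjusted p-values between 0.0544 and 0.0923.

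Genes that report ERK output were higher as far as they passed. Of 16 tested members of the ERK feedback and output list, 4 were higher and 0 lower, against 3.49% and 2.61% of all genes, and the list's median difference was 0.84 against -0.005. Dusp6, the phosphatase that inactivates ERK in the cytoplasm, gave 3450, 8267 and 6947 on the BRAF arrays against 1505 and 1616 on the luciferase arrays. It was 1.99 ± 0.52 higher on the log2 scale (limma adjusted p = 0.0365), a call that was lost with background subtraction or cyclic loess (largest adjusted p 0.0693). Ier3, an early response gene, gave 666, 1967 and 1553 against 145 and 362 (2.57 ± 0.55, limma adjusted p = 0.0159). Plaur, the receptor of urokinase, gave 280.5, 1324 and 1234 against 108 and 141 (2.80 ± 0.67, limma adjusted p = 0.0255). Fosl1, the AP-1 subunit FRA1, gave 141, 441 and 356 against 79.3 and 73.1 and was at least 2.35-fold higher (limma adjusted p = 0.0288). BRAF replicate 1 was the lowest of the 3 in all of these genes, and 1 luciferase array of Plaur was dim. All 4 calls were lost without BRAF replicate 2, and those of Dusp6, Plaur and Fosl1 also without BRAF replicate 3. Summed over the list, intensity was 9168 to 18740 in BRAF RG and 5794 to 5909 in luciferase RG. It was 5458 to 7808 in BRAF G and 4294 to 4456 in luciferase G. In a fit to the 5 RG arrays alone, the adjusted p was 0.0566 for Plaur and 0.0581 for Fosl1.

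Feedback genes of the Sprouty and PEA3 families did not pass in the weighted fit. Spry2 differed by 0.85 and Spry4 by 0.82 (limma adjusted p = 0.142 and 0.283). Etv4, an ETS factor, differed by 1.28 (0.0639), whereas its relative Etv5 had 283, 240.0 and 260.4 on the BRAF arrays against 379 and 429 on the luciferase arrays, a difference of -0.65 (0.129). Dusp4, the nuclear counterpart of Dusp6, differed by 0.74 (0.318), and Phlda1 by 1.80 (0.0557). Without array weights Etv4, Phlda1 and Spry2 passed (limma adjusted p = 0.00721, 0.0178 and 0.0305). Spry4, Dusp4 and Etv5 did not pass there (0.146, 0.101 and 0.051). In the fit to the 5 RG arrays alone, Etv4 was the only one of these genes to pass (0.0344). Of 6 tested EGF ligands, ErbB receptors and inhibitors, 0 passed in either direction with limma, the median was 1.26, and 4 of them had an unadjusted p under 0.05 on the higher side. Over all tested genes the share with an unadjusted p under 0.05 was 13.4% on the higher side and 10.3% on the lower, which is the background of all such counts below. Hbegf, a ligand of the EGF receptor, gave 595, 1514 and 2404 against 554 and 299.8 (1.77 ± 0.80, limma adjusted p = 0.193). Areg was not analysed here. Among 9 tested members of the RAS, RAF, MEK and ERK cascade, 0 passed with limma, and 1 had an unadjusted p under 0.05, on the lower side.

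The list of AP-1 and immediate-early factors leaves out Fosl1 and Ier3, which were counted with ERK output above and were higher. Of its 13 tested members, 1 passed and was lower, Klf4, a factor of differentiated and goblet cells. It gave 484, 897 and 838 against 2375 and 2694 (log2 -1.77 ± 0.38, limma adjusted p = 0.0158). Fos and Egr1, both early ERK targets in many cells, differed by -0.81 and -0.22 (limma adjusted p = 0.462 and 0.873). Fosb gave 401, 196 and 582 against 2393 and 1342 (-2.37, limma adjusted p = 0.0925), and Jun differed by -1.19 (0.124). Of the 13 members 9 were negative, beside 4768 of all 9469 genes. By limma, 3 on the lower side and 1 on the higher had an unadjusted p under 0.05. Myc differed by 1.23 (0.085), with 1 of its 2 probes opposite in sign. Of 9 heat shock and dissociation stress genes, 1 was higher, beside 3.49% of all genes. This was Hspd1, a mitochondrial chaperonin, by 1.01 ± 0.26 (limma adjusted p = 0.0339). Its call was lost with background subtraction or cyclic loess (largest adjusted p 0.0633). Summed intensity of the 9 genes was 34000 to 42040 in BRAF RG, 21760 to 22400 in luciferase RG and 32560 to 35350 in luciferase G, and the part of this difference in the other results was not tested.

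The regeneration and wound-type list held the largest share of higher genes among the lists. Of 20 tested members, 10 were higher and 0 lower, beside 3.49% and 2.61% of all genes, and the median difference was 2.02. Besides S100a6 they were S100a11, S100a10, Anxa1, Anxa2, Anxa5, Anxa10, Clu, Gprc5a and Lgals3, of which Anxa2, Anxa5 and Lgals3 were named after their values were seen. The list was drawn up with earlier results of these data known, so its count is a description. Summed over the list, intensity was 40840 to 67380 in BRAF RG and 14660 to 16170 in luciferase RG. It was 17250 to 22750 in BRAF G, 21490 to 31300 in BRAF NEG and 11930 to 12000 in luciferase G. The BRAF G and BRAF NEG arrays were thus also above both luciferase groups.

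S100a11, a partner of annexins in membrane repair, gave 7409.9, 5963 and 4808 against 1056 and 1511 (log2 2.21 ± 0.29, limma adjusted p = 0.0023). S100a10, which pairs with annexin A2 at the cell surface, gave 7069.5, 9605 and 6606 against 2794 and 3183 (1.38 ± 0.29, limma adjusted p = 0.0153). Anxa2 itself gave 10679.7, 16415 and 9009 against 4003 and 4195 (1.53 ± 0.34, limma adjusted p = 0.0186). All 3 genes were bright in both groups.

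Anxa10 and Anxa1, calcium-dependent membrane binders, were dim on both luciferase arrays. Anxa10 gave 454, 1098 and 436 against 99.5 and 67.6, at least 5.05-fold higher (limma adjusted p = 0.0148). Anxa1, which also acts outside cells to limit inflammation, gave 331, 1022 and 318 against 75.3 and 69.0, at least 4.00-fold higher (limma adjusted p = 0.0338). Clu, a secreted chaperone that marks revival stem cells after injury, gave 323, 183 and 191 against 80.5 and 66.5, at least 1.88-fold higher (limma adjusted p = 0.0284). Lgals3, the lectin galectin 3, gave 901, 2187 and 1596 against 177 and 491 (2.39 ± 0.63, limma adjusted p = 0.0359). In contrast, Krt7 gave 1697, 1931 and 1369 against 1312 and 872 and did not pass (0.63 ± 0.39, limma adjusted p = 0.345), nor did the YAP targets Ankrd1 (-0.34, 0.449) and Ccn1 (-0.64, 0.629). Ly6a was not analysed here.

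**Figure D2:**
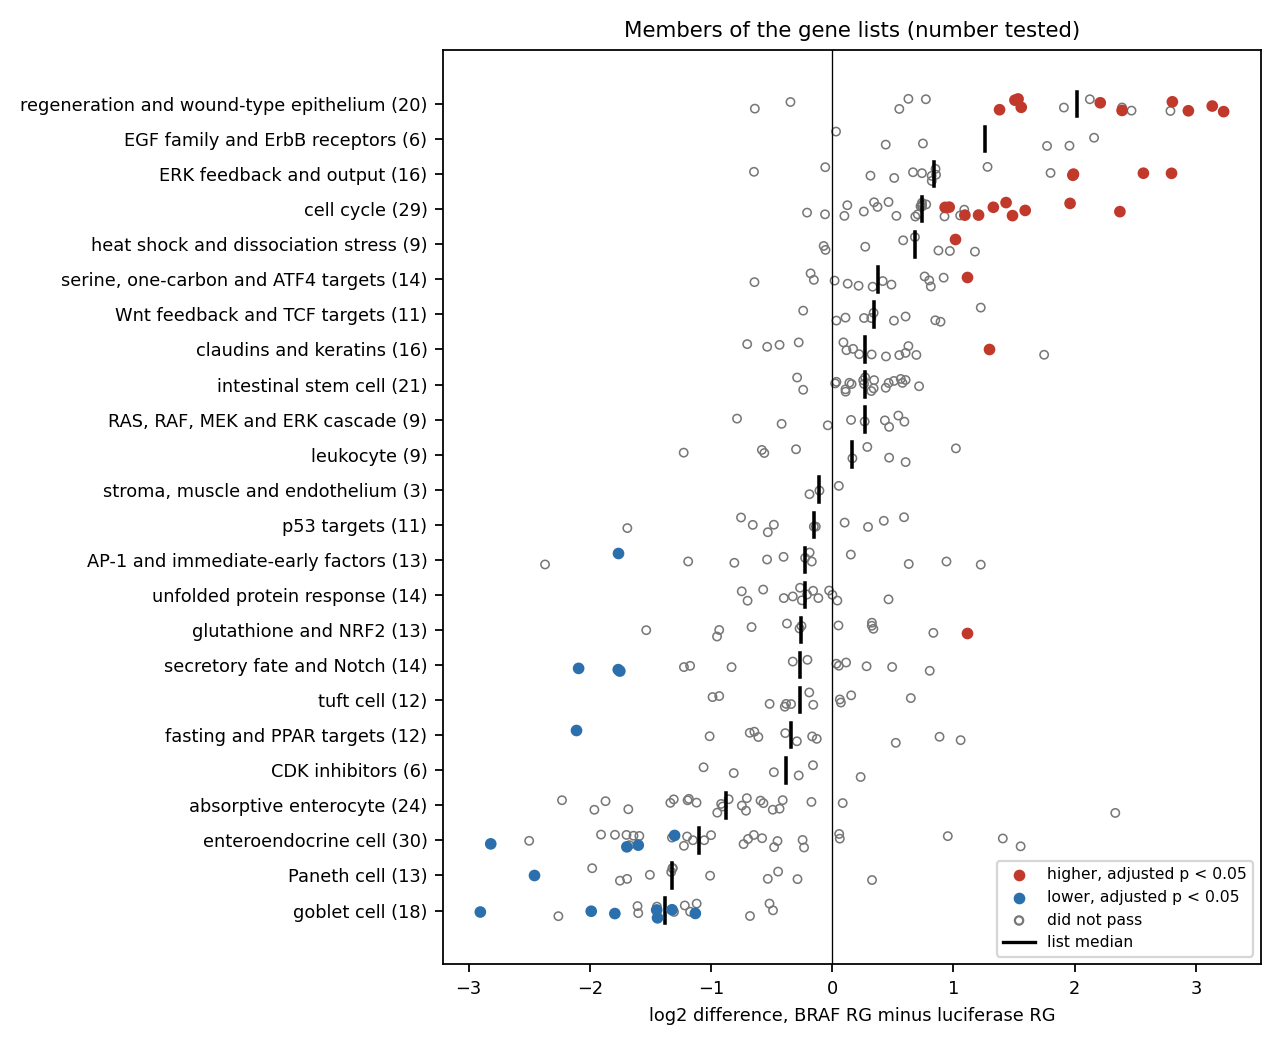
Log2 difference between BRAF RG and luciferase RG for each tested member of the 24 gene lists, with filled points for members past an adjusted p of 0.05 and a bar at each list's median. The regeneration list has the highest median, 2.02, and the goblet cell list the lowest, -1.38, with all 18 of its points below 0.

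The bases before the start sites of called members of these lists are shown for the motif TGANTCA. AP-1, the dimer that holds FRA1, binds it, and Fosl1 itself was higher. Jun, Jund, Fos and Fosb, also AP-1 subunits, lay on the other side without passing (-1.19, -0.54, -0.81 and -2.37). Their limma adjusted p-values lay between 0.0925 and 0.462. Promoter windows of 250 bases, read 5′ to 3′ on the gene's strand, were taken from RefSeq on GRCm38.p6 for 3 of the 4 called ERK genes and 7 of the 10 called regeneration genes. The windows lie at chr3:90612644-90612893 (+) for S100a6, chr3:93520246-93520495 (+) for S100a11, chr9:69453433-69453682 (+) for Anxa2, chr8:62123194-62123443 (-) for Anxa10 and chr7:24462233-24462482 (+) for Plaur. The Plaur window precedes a RefSeq start inside the gene's listed span (chr7:24460937-24475970), whereas the other 4 windows abut the start of the listed span. Shown are the 4 windows with a match and 1 without. Capitals mark TGANTCA, which was searched on both strands and reads alike on them.
S100a6: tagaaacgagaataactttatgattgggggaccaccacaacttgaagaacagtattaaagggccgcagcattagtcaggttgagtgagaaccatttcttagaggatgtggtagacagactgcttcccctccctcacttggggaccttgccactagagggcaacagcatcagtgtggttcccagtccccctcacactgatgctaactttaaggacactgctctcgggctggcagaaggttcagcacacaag
S100a11: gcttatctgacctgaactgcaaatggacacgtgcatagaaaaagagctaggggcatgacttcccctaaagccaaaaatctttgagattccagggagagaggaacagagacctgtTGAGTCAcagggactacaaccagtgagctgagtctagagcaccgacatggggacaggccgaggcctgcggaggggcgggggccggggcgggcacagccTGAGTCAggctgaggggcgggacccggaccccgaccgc
Anxa2: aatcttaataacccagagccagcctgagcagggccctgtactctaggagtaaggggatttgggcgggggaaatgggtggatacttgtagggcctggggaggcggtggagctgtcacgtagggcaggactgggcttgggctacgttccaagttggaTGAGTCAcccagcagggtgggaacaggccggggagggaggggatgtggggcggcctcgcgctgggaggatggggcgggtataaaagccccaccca
Anxa10: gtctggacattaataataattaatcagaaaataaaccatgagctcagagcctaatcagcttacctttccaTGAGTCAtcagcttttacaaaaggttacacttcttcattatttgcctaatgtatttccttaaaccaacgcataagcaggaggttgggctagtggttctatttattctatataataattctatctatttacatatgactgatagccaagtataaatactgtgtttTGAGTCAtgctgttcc
Plaur: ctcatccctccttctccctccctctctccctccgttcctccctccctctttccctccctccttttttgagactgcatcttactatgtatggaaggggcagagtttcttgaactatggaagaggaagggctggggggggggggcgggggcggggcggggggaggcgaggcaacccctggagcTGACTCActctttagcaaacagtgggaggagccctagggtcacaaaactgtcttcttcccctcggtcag

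S100a11 and Anxa10 hold 2 matches each, Anxa2 and Plaur 1 each, and S100a6, the gene with the lowest adjusted p, holds 0. Over the lists, 1 of 3 ERK windows and 3 of 7 regeneration windows hold a match, too few for a share to be read. Of all 32851 promoter windows of this length, 6.75% hold the motif, against 4.81% of the windows of tested genes, 4.95% of those of called higher genes and 6.32% of those of called lower genes. The ETS motif CCGGAAG, searched on both strands, occurs in 0 of the windows of the called ERK and regeneration genes, in 6.91% of all windows, 13.2% of the windows of tested genes, 18.5% of those of called higher genes and 5.20% of those of called lower genes. These are matches of letters in a short window, and binding was not measured.

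Of 29 tested cell cycle genes, 10 were higher and 0 lower, beside 3.49% and 2.61% of all genes. A positive difference was found in 27 of them, beside 4692 of all 9469 genes, and the median was 0.74. Subunits of the replicative helicase were among the called genes. Mcm7 gave 955, 576 and 592 on the BRAF arrays against 151 and 109 on the luciferase arrays (log2 2.37 ± 0.39, limma adjusted p = 0.00521). Mcm2 gave 695, 539 and 505 against 149.7 and 139.6 (1.96 ± 0.30, limma adjusted p = 0.00374), and Mcm4 gave 3427, 3052 and 2862 against 1186 and 1014 (1.49 ± 0.24, limma adjusted p = 0.00442). The mitotic kinase Plk1 gave 2325, 2375 and 2440.4 against 1015 and 766 (1.44 ± 0.23, limma adjusted p = 0.00504). For Mcm7, 1 of the 2 luciferase arrays was dim. BRAF replicate 1 was the highest of the 3 for these Mcm genes. The remaining 6 called members, named after their values were seen, were Mcm3, Cenpa, Rrm1, Birc5, Aurka and Cdt1, with differences from 0.93 to 1.59.

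Not every proliferation gene passed. Top2a gave 464, 504 and 509 against 349 and 609.7 (0.10, limma adjusted p = 0.884), and Cdk1 differed by -0.21 (0.704). Ccnd1, the cyclin that ERK induces in many cells, gave 4824, 3576 and 3645 against 1711 and 2728 and missed the threshold (0.85 ± 0.26, limma adjusted p = 0.0597). Mki67 was not analysed here. Summed over the 29 genes, intensity was 28400 to 33730 in BRAF RG and 15570 to 18070 in luciferase RG, but 30930 to 32860 in luciferase G. The BRAF RG cells thus lay at the level of the luciferase cells that were low in red, and the luciferase RG cells lay below both.

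Inhibitors of the cell cycle did not pass. Of 6 tested CDK inhibitors, 0 passed with limma in either direction, 2 had an unadjusted p under 0.05 on the lower side, and the median was -0.38. Cdkn1a, which encodes p21, gave 531, 994 and 758 against 1119 and 1021 (log2 -0.48 ± 0.42, limma adjusted p = 0.504). Cdkn2b, which encodes p15, gave 408, 431 and 851 against 543 and 785, with overlapping groups (-0.28 ± 0.44, limma adjusted p = 0.735). Cdkn2a, the gene of p16 and p19ARF and a marker of oncogene-induced arrest, has 2 probes, which were too dim to be tested. Of 11 tested p53 targets, 0 passed with limma, 1 on the higher and 3 on the lower side had an unadjusted p under 0.05, and the median was -0.15.

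The secretory fate factors Atoh1 and Gfi1 were lower in BRAF RG. Of 14 tested members of the secretory fate and Notch list, 3 were lower and 0 higher, beside 2.61% and 3.49% of all genes. Atoh1, the factor that commits crypt cells to secretory fates (chr6:64729125-64731245), gave 138, 167 and 127 on the BRAF arrays against 458 and 518 on the luciferase arrays (log2 -1.75 ± 0.24, limma adjusted p = 0.00267). Gfi1, which acts below ATOH1 in goblet and Paneth cells (chr5:107716655-107725805), gave 133, 139.5 and 130.3 against 552 and 595 (-2.09 ± 0.28, limma adjusted p = 0.00266). The BRAF arrays of both genes lay just above the array median and the luciferase arrays well above it. Klf4 was the third.

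Other members of the list did not pass. Spdef, needed for goblet and Paneth cell maturation, gave 191, 222 and 349 against 492 and 645 (-1.17, limma adjusted p = 0.0605). Neurog3, the factor of enteroendocrine fate, gave 496, 982 and 495 against 1529 and 1483 (-1.22, limma adjusted p = 0.133). The Notch ligand Dll1 differed by -0.20 (0.703), the receptor Notch1 by 0.06 (0.925) and the Notch target Hes1 by 0.50 (0.378), with overlapping groups in each.

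All 18 tested goblet cell genes were below the luciferase arrays on every BRAF array, and 7 passed, with 0 higher and a median of -1.38. As a background, 21.7% of all genes were below in this sense and 2.61% passed. Tff3, a peptide that protects mucus, gave 4917, 5664 and 7365 against 12388 and 13822 (-1.13 ± 0.25, limma adjusted p = 0.0201). Klk1, a kallikrein protease, gave 989, 1290.4 and 1397 against 2921 and 3271 (-1.32 ± 0.28, limma adjusted p = 0.0155). Galnt12, which adds the first sugar to mucins, gave 572, 412 and 580.4 against 1653 and 1146 (-1.44 ± 0.31, limma adjusted p = 0.0175). The chemokine Ccl6 gave 95.9, 118 and 146 against 387 and 591 (-1.99 ± 0.31, limma adjusted p = 0.004). Its relative Ccl9 fell by 2.90 (limma adjusted p = 0.0284), with 237, 207 and 540.0 against 2093 and 2418. The call of Ccl9 was lost after background subtraction (limma adjusted p = 0.0808) and without BRAF replicate 1 or 2. For Ccl6, 2 of the 3 BRAF arrays were dim. Spink4 (-1.45) and Clca1 (-1.79), named after their values were seen, also passed. Zg16, a granule lectin, gave 3213, 4082 and 6872 against 12221 and 12862 and missed the threshold (-1.45 ± 0.45, limma adjusted p = 0.0639). Muc2 was not analysed here. BRAF replicate 3 was the highest of the 3 for Tff3, Klk1, Galnt12, Ccl6, Ccl9 and Zg16.

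Of 30 tested enteroendocrine genes, 4 were lower and 0 higher, beside 2.61% and 3.49% of all genes. The median was -1.10, and 25 were negative, beside 4768 of all 9469 genes. Gip, the incretin hormone of duodenal K cells (chr11:96024532-96030831), gave 775, 520.0 and 1075 against 5562 and 4958 (-2.82 ± 0.46, limma adjusted p = 0.00504). Pcsk1, the protease that matures prohormones, gave 154, 162 and 181 against 532 and 477 (-1.60 ± 0.26, limma adjusted p = 0.00504). The factors Pax4 and Rfx6, which act in endocrine differentiation, fell by 1.69 and 1.30 (limma adjusted p = 0.0129 and 0.0255). Pcsk1, Pax4 and Rfx6 lost the call after background subtraction, with adjusted p-values of 0.0641, 0.106 and 0.0906.

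Other hormone and granule genes did not pass. Chga, the granule protein chromogranin A, gave 647, 867 and 912 against 4556 and 4692 but missed the threshold in the weighted fit (-2.50 ± 0.83, limma adjusted p = 0.084). Chga passed without array weights (limma adjusted p = 0.00608) and in the fit to the 5 RG arrays alone (0.0176). Tph1, which makes serotonin, gave 939.7, 971 and 1149 against 1673 and 1631 (-0.69, limma adjusted p = 0.578). Tac1, which encodes substance P, gave 1378, 1101 and 1363 against 1818 and 1694 (-0.48, limma adjusted p = 0.665). In the fit to the 5 RG arrays alone the limma adjusted p was 0.0894 for Tph1 and 0.212 for Tac1. Sct, the secretin gene, differed by -0.58 (0.279). Pyy and Scg2 were on the other side, at 1.56 and 1.41 (0.15 and 0.0931). Summed intensity of the 30 genes was 28740 to 34010 in BRAF RG, 65740 to 66760 in luciferase RG and 13590 to 16270 in luciferase G, so BRAF RG lay between the other groups, as it did for goblet genes.

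**Figure D3:**
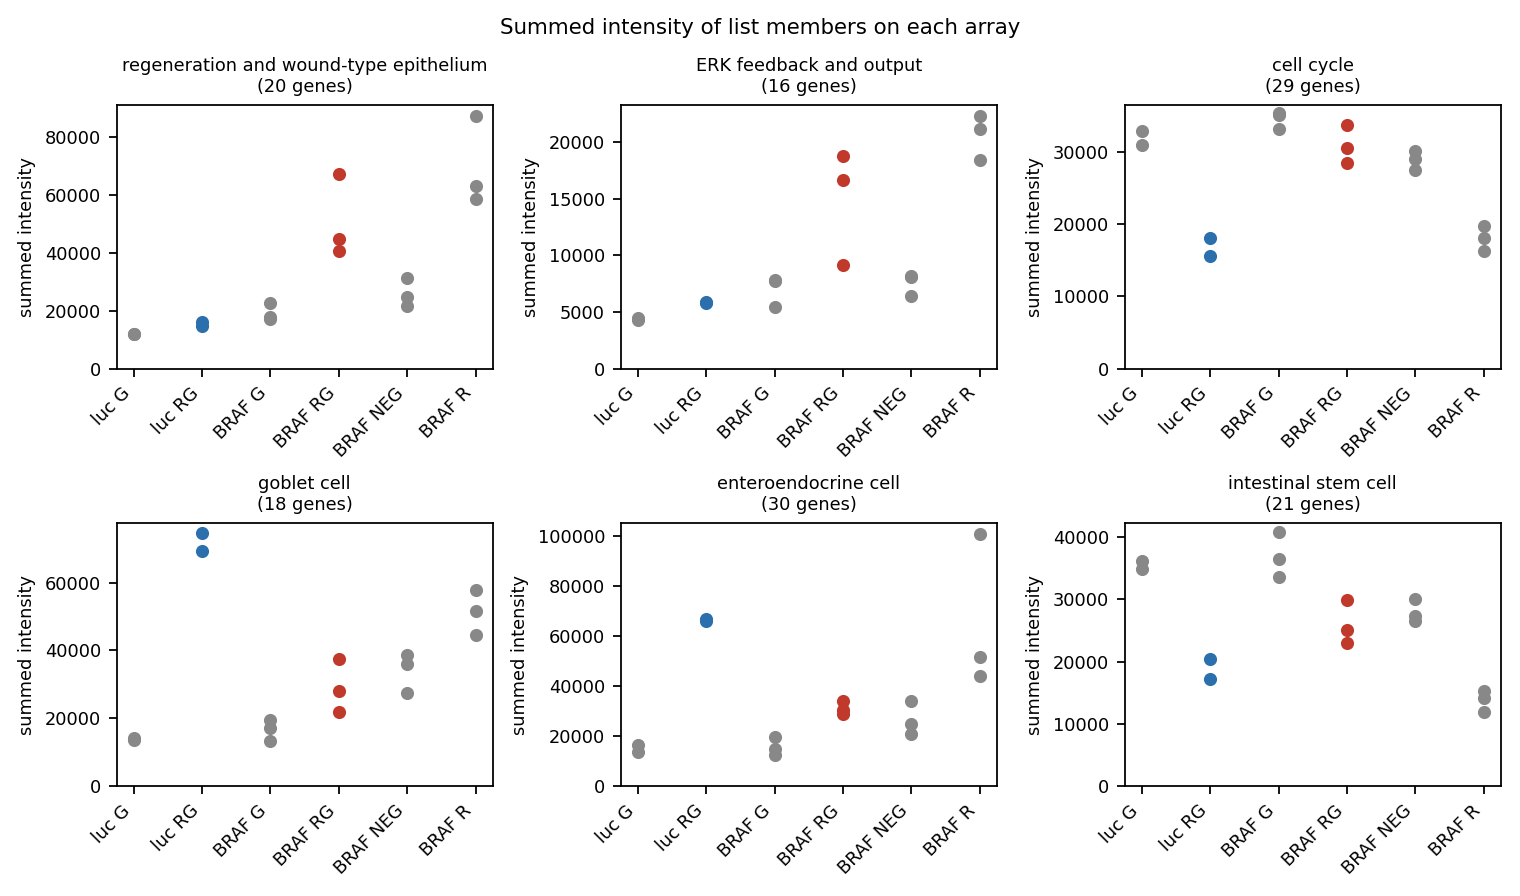
Summed intensity of the members of 6 gene lists, 1 point per array, for the 6 sorted groups, with luciferase RG in blue and BRAF RG in red. Goblet and enteroendocrine sums are lower in BRAF RG than in luciferase RG and above luciferase G, cell cycle sums of luciferase RG are below those of luciferase G, and regeneration sums are highest in BRAF RG and BRAF R.

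Paneth cell genes spread widely among the BRAF mice. Of 13 tested, 1 was lower and 0 higher, beside 2.61% and 3.49% of all genes, with a median of -1.32. Mptx1, a pentraxin, gave 105, 196 and 307 against 2035 and 558 (-2.46 ± 0.69, limma adjusted p = 0.0458), and did not pass in the fit to the 5 arrays or after background subtraction (largest adjusted p 0.182). Of its 3 BRAF arrays, 1 was dim. Lyz1, the lysozyme of Paneth granules, gave 1787, 6155 and 10954 against 13529.7 on both luciferase arrays (-1.32 ± 0.91, limma adjusted p = 0.398). Ang4, a bactericidal ribonuclease, gave 1609.6, 1212 and 1997 against 3146 and 1608 (-0.53, limma adjusted p = 0.676). Their summed intensity ran from 12000 to 72130 across the BRAF RG arrays, against 82840 to 83690 in luciferase RG.

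Of 12 tested tuft cell genes, 0 passed with limma and 2 had an unadjusted p under 0.05 on the lower side, with a median of -0.26. Dclk1, the marker of tuft cells, was dim on all 3 BRAF arrays and 185 and 174 on the luciferase arrays (limma adjusted p = 0.181). Trpm5, a channel of the tuft cell taste pathway, was too dim to test. Of 24 tested absorptive enterocyte genes, 0 passed with limma, 1 on the higher side and 8 on the lower had an unadjusted p under 0.05, and the median was -0.88. Apoa4, a lipid transport protein of mature enterocytes, gave 236, 1105 and 1519 against 1072 and 1772, and Krt20, a keratin of differentiated cells, gave 1064, 1725 and 2083 against 1999 and 2404. The groups overlapped for both genes, and BRAF replicate 1 was the lowest of all 5 arrays. Summed over the list, intensity was 12610 to 34270 in BRAF RG and 35790 to 38050 in luciferase RG.

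Stem cell genes showed no call. Of 21 tested members, 0 passed with limma in either direction, 2 had an unadjusted p under 0.05 on the higher side, and the median was 0.27. The difference was positive in 19 of the 21, beside 4692 of all 9469 genes. Lgr5 was 182.0, 181 and 168 on the BRAF arrays against 141 and 138 on the luciferase arrays (0.34 ± 0.55, limma adjusted p = 0.739). This SE is estimated over all 6 groups, whereas the log2 SD of Lgr5 was 0.064 in BRAF RG and 0.021 in luciferase RG. In the fit to the 5 RG arrays alone Lgr5 did not pass either (limma adjusted p = 0.299). Olfm4 gave 2519, 3213 and 3073 against 2818 and 2501 (0.16 ± 0.29, limma adjusted p = 0.77). Ascl2, the stem cell factor downstream of Wnt, gave 219, 159 and 149 against 150.0 and 164 (0.11 ± 0.25, limma adjusted p = 0.82), and its sign turned without BRAF replicate 1. Axin2, the Wnt feedback inhibitor, gave 1044, 647 and 601 against 435 and 817 (0.26 ± 0.37, limma adjusted p = 0.695), and its sign turned without luciferase replicate 1 (-0.19). Of 11 tested Wnt targets, 10 were positive, 0 passed with limma and 3 had an unadjusted p under 0.05 on the higher side. Summed over the stem cell list, intensity was 23030 to 29850 in BRAF RG, 17160 to 20370 in luciferase RG and 34930 to 36070 in luciferase G. Smoc2 was not analysed here.

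Each of 4 lists of metabolism and junctions held 1 called gene. With 12 to 16 members a list, and 3.49% of all genes higher and 2.61% lower, these counts are near the background and are no result about the lists. Cldn2, a pore-forming claudin of crypts, was the 1 called gene among 16 claudins, keratins and junction genes, with 2298, 1841 and 1865 against 753 and 854 (log2 1.29 ± 0.27, limma adjusted p = 0.0154). Gpx2, a glutathione peroxidase of the gut epithelium, was the 1 called gene among 13 of the NRF2 list, with 4539, 3683 and 3688 against 1746 and 1847 (1.12 ± 0.24, limma adjusted p = 0.0155). Psat1, an enzyme of serine synthesis, was the 1 called gene among 14 serine and ATF4 genes, with 1533, 1371 and 1096 against 521 and 698 (1.12 ± 0.30, limma adjusted p = 0.0392). Pdk4, which slows pyruvate oxidation on fasting, was the 1 called gene among 12 PPAR targets, with 88.4, 111 and 216 against 525 and 622 (-2.11 ± 0.44, limma adjusted p = 0.0152). For Pdk4, 2 of the 3 BRAF arrays were dim. Psat1 and Pdk4 lost the call after background subtraction. Of 14 genes of the unfolded protein response, 0 passed with limma and 2 had an unadjusted p under 0.05 on the lower side.

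Markers of cells from outside the epithelium showed no call. Of 27 leukocyte genes with a probe, 18 were too dim to test, among them Ptprc (CD45) and Cd3e (the T cell receptor chain CD3ε), and 0 of the 9 tested passed with limma, with 0 at an unadjusted p under 0.05. Their summed intensity was 1562 to 4587 in BRAF RG and 3420 to 4188 in luciferase RG, against 11310 to 18170 in BRAF NEG. Ccl5, a chemokine of intraepithelial T cells, gave 142, 111 and 329 against 209 and 74.9, with overlapping groups and a sign that turned without luciferase replicate 2. Of 15 stroma, muscle and endothelium genes with a probe, 12 were too dim and 0 of the other 3 passed with limma.

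The same lines were compared in the G gate, cells of the same mice low in the red transgene. In the weighted fit 531 genes were higher (5.61%) and 590 lower (6.23%) in BRAF G, but 9 and 12 without array weights, so only values of single genes are given below. S100a6 also differed in G, with 1723.5, 1908 and 1532 in BRAF G against 163 and 169 in luciferase G, a log2 difference of 3.39 (limma adjusted p = 4.86e-10) beside 3.23 in RG. The difference between the gates' differences was -0.16 ± 0.34 (limma adjusted p = 0.855). Likewise Gpx2 differed by 1.09 in G, Psat1 by 1.33, Reg1 by -3.14 and Pdk4 by -2.77, beside RG values of 1.12, 1.12, -3.45 and -2.11. Their limma adjusted p-values in G lay between 7.58e-07 and 0.000138, and without array weights Reg1 did not pass there (0.0929). Mboat1 (2.29), Lgals1 (2.03), Ddah1 (1.65) and S100a11 (1.25) also differed in G, with limma adjusted p-values between 6.17e-05 and 0.000649, beside 3.76, 3.05, 3.24 and 2.21 in RG. Without array weights Lgals1 did not pass in G (0.155). The test of the difference between gates did not pass for these 4 genes (limma adjusted p = 0.319, 0.505, 0.12 and 0.146). Transgene level in the G cells could not be measured.

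**Figure D4:**
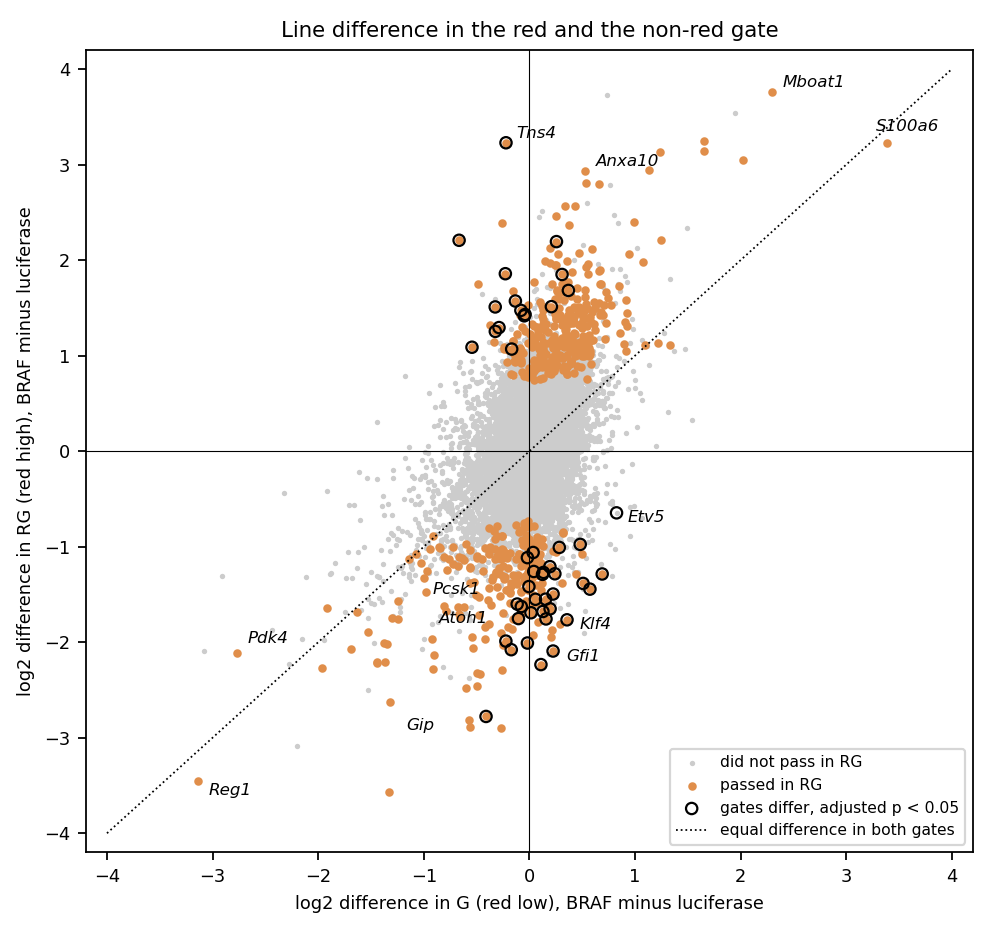
Log2 difference between the lines in the G gate (horizontal) and in the RG gate (vertical) for 9469 genes, with called RG genes in orange, circles round the 47 genes whose difference differed between gates, and a dotted line of equal difference. S100a6, Reg1 and Pdk4 lie near the dotted line, and Tns4, Gfi1, Atoh1 and Klf4 lie near 0 in G.

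The difference between the lines differed between gates in 16 genes in the positive direction (0.169%) and 31 in the negative direction (0.327%). G and RG arrays of 1 mouse share a mouse, and with the mouse as a random block the counts were 100 and 135. Leaving out either luciferase RG array at unchanged weights left 0 or 3 positive and 4 or 3 negative genes. Tns4 was the named gene among the positive ones: 1029, 2193 and 786 in BRAF RG and 148 and 121 in luciferase RG, but 376, 603 and 509 in BRAF G and 453 and 639.8 in luciferase G (difference of differences 3.45 ± 0.72, limma adjusted p = 0.0433). Luciferase RG was thus lower than all other groups for this gene.

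Atoh1, Gfi1, Klf4, Pcsk1, Ccl6 and Myrip were the named genes on the negative side with a fall in RG. Gfi1 was between 143 and 210 in BRAF G and 147 and 170 in luciferase G, a difference of 0.23, against -2.09 in RG (difference of differences -2.32 ± 0.31, limma adjusted p = 0.0131). Atoh1 was between 122 and 130 in BRAF G and 129 and 140 in luciferase G, close to the array median, a difference of -0.10 against -1.75 (-1.65 ± 0.27, limma adjusted p = 0.0215). For Atoh1, Pcsk1, Ccl6 and Myrip the G arrays of both lines lay between 89.2 and 154, near the array median, where a further fall could not be measured. Klf4 was 683, 659 and 992 in BRAF G and 651 and 497 in luciferase G (0.36 in G against -1.77 in RG, limma adjusted p = 0.0345).

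Etv5 also passed the test of the difference between gates, although its RG difference of -0.65 did not pass by itself. It was 323, 360.4 and 374 in BRAF G against 196 and 192 in luciferase G, 0.83 higher (limma adjusted p = 0.000605, and 0.196 without array weights). The difference of differences was -1.47 (limma adjusted p = 0.0345). Among the 4 groups luciferase RG had the highest Etv5 and luciferase G the lowest, and none of the 4 groups overlapped another. Dusp6 was 1181, 2457 and 2529 in BRAF G against 802 and 839 in luciferase G, a difference of 1.07 that did not pass without array weights (limma adjusted p = 0.266). Its difference of differences was 0.91 ± 0.58 and did not pass (limma adjusted p = 0.479).

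**Figure D5:**
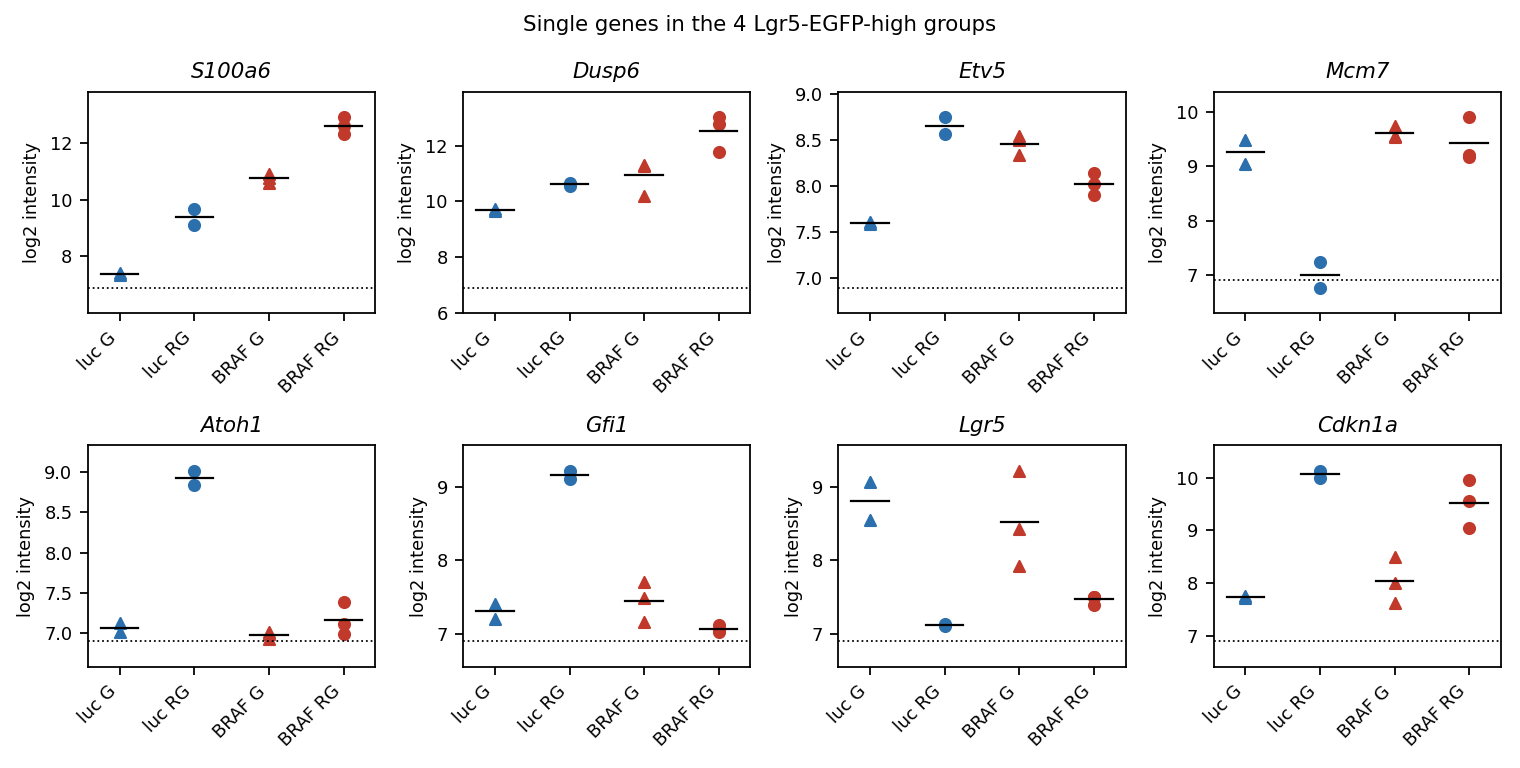
Log2 intensity of 8 genes in the 4 Lgr5-EGFP-high groups, 1 point per array, with the group mean as a bar, luciferase in blue, BRAF in red and the array median dotted. S100a6 is higher in BRAF in both gates, Atoh1 and Gfi1 are highest in luciferase RG, and Mcm7 is lowest there.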

How the data were processed

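RNA of sorted duodenal crypt cells was measured after a NuGen labelling step, per the labels' protocols. The authors' deposited values are linear intensity per probe, and all 16 arrays share 1 distribution. The submitters' processing notes name GenomeStudio, and its version, the normalization and the background handling are not given in the sources used here. A second table, of 32 columns, carries running numbers that match no array label, so it was not used here. The background correction by detection p-value is therefore replaced by subtraction of each array's 5th percentile, as an alternative.

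Of 25697 probes, 23978 have 1 gene symbol in the platform annotation, 0 several and 1719 none. The filter kept 13289 named probes, and 2582 of the tested genes had more than 1. Among the 577 called genes, 22 had another probe of opposite sign. Log2 of the deposited intensity was fitted in R 4.3.3 with limma 3.58.1 (lmFit, arrayWeights and eBayes) over 16 arrays in 6 groups, with 10 residual and 6.28 prior degrees of freedom. The weighted log2 differences can depart slightly from differences of plain group means. Adjusted p-values are Benjamini-Hochberg over all 9469 genes, with a threshold of 0.05. A gene dim on every array of a group has a bound from means of log2 values: the brighter group's mean is divided by that of the dimmer group, in which values below an array's median are first raised to it. Where a gene was dim on some arrays of a group only, the fitted difference is given.

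Per the labels, arrays of the G and RG gates with the same number and line come from the same mouse. Mice of the 2 lines share only numbers, so RG arrays were compared unpaired. The sources used here name no chip or scan day, and no batch was tested.

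The members and the gene lists were chosen with earlier results of these data known. Named genes were the 12 largest rises and 12 largest falls among called genes whose groups do not overlap and whose probe was above the median on all arrays of the brighter group, up to 4 called members per list and direction by adjusted p, and a fixed set of markers. Other list members named in the text were named after their values were seen. The fit was tested on simulated data. Alternatives changed the weights, arrays, blocks, background, normalization, filter, probe choice and 1 array at a time. The alternative without a luciferase RG array at unchanged weights was added after seeing the data.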

Additional observations from a re-analysis of the deposited data

Results flagged for a closer look

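In 8 named genes the difference between the lines differed between the RG and the G gate, by a limma test of the difference of differences. Tns4 had 3.45 (limma adjusted p = 0.0433), from 3.23 in RG and -0.22 in G. The other 7 were negative. Gfi1 had -2.32 (0.0131), from -2.09 and 0.23, and Atoh1 had -1.65 (0.0215), from -1.75 and -0.10. Myrip had -2.37 (0.0363), Klf4 -2.12 (0.0345), Ccl6 -1.77 (0.0345) and Pcsk1 -1.49 (0.0345), each lower in BRAF RG. Etv5 had -1.47 (0.0345), with 0.83 in G and -0.65 in RG. Without array weights all of these genes passed as well, with adjusted p-values between 0.0034 and 0.0386. No formal rule for outlying arrays was applied, because the RG groups are too small for one.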

How the results depend on the processing

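The direction of all 48 named genes that passed was kept under every alternative that tested them, and with either replicate block, without weights or without a filter all 48 still passed. With the mouse as a random replicate block (correlation 0.198), 376 genes were higher and 283 lower in RG, and 26 list members were lower. For the difference between gates the counts were 100 and 135. With the replicate number as a fixed block, which pairs mice of different lines that share only a number, 434 were higher and 358 lower, 37 list members were lower, and the gates differed in 37 and 58 genes.

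Without array weights 1047 genes were higher and 780 lower in RG, among them all 330 and 247, with 65 and 59 list members against 28 and 16, and 9 higher and 12 lower in G against 531 and 590. The fit to the 5 RG arrays called 220 and 187 genes, of which 184 and 142 were shared, and 29 lower list members. Plaur, Fosl1 and Mptx1 were lost there, and Chga and Etv4 passed there although not in the weighted fit. Without weights, named genes outside the weighted calls that passed were Ccnd1, Chga, Dclk1, Etv4, Hbegf, Myc, Neurog3, Phlda1, Spdef, Spry2 and Zg16. Their limma adjusted p-values lay between 0.00485 and 0.0481. Subtracting background left 97 lower genes, 8 lower list members and 9 and 9 genes between gates. It lost 16 named calls: Amigo2, Ccl9, Dusp6, Gprc5a, Hdc, Hspd1, Il18r1, Mptx1, Pax4, Pcsk1, Pdk4, Psat1, Reg1, Reg3a, Rfx6 and Rnase1. Cyclic loess gave 210 higher genes and lost Dusp6, Hspd1 and Psat1. Without a filter 514 were higher in RG, 163 and 220 were called in G, and 34 were positive between gates. Requiring all 5 arrays above the median gave 40 positive genes between gates, the 75th percentile 81 and 81 with 31 lower list members, and the mean of probes 38 and 50. The cause of these shifts was not tested.

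Leaving out 1 array gave 45 to 1325 higher and 34 to 1160 lower genes in RG, 6 to 67 higher and 4 to 60 lower list members, and 0 to 580 positive and 3 to 629 negative genes between gates. Without BRAF replicate 2, 34 of the 48 named genes passed, and without 1 luciferase array at unchanged weights 12 or 10. A lone luciferase array is assumed to vary like the other groups. Genes that did not pass and turned sign were Axin2 (-0.193 to 0.717, negative without luciferase replicate 1), Ccl5 (-0.271 to 1.21, negative without luciferase replicate 2) and Ascl2 (-0.024 to 0.251, negative without BRAF replicate 1). With 2 control mice and background in the values, differences of dim genes are the least certain.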

Other observations

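Some gene families not described above were picked after their values were seen, and their counts carry no test. Of 27 genes of nucleolar and ribosome assembly (Nop, Utp, Rrp and Polr1), 6 were higher in BRAF RG (Nop16, Nop58, Polr1e, Rrp15, Rrp9 and Utp15), 0 were lower, 26 were positive and the median log2 difference was 0.74. Of 74 mitochondrial ribosomal proteins, 8 were higher, 0 lower and 68 positive, with a median of 0.45. Of 37 genes with symbols from Psma to Psmd, most of them proteasome subunits, 4 were higher (Psmc3ip, Psmd12, Psmd14 and Psmd6) and 0 lower. Psmc3ip was picked by its symbol and is not a proteasome subunit. Of 7 Cct chaperonin genes 2 were higher. On the other side, 4 of 5 kallikrein 1 genes were lower (Klk1, Klk1b27, Klk1b5 and Klk1b8), as were 4 of 24 cytochrome P450 genes (Cyp2b10, Cyp2c40, Cyp2c67 and Cyp2d22). Klk1 is also one of the goblet genes above, and whether probes of the kallikrein 1 genes read the same RNA was not tested. Of 175 Slc transporters outside Slc25, 1 was higher, Slc2a1, the glucose transporter GLUT1, and 6 were lower. Over all tested genes 3.49% were higher and 2.61% lower.

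Among genes whose line difference differed between the gates, several outside the named set were picked after their values were seen. Ano7 differed by -2.23 in RG and 0.11 in G (limma adjusted p = 0.0175 for the difference between gates), Hepacam2 by -1.68 and 0.13 (0.0215) and Vcan, a proteoglycan, by -1.42 and -0.004 (0.0215). Cenph, a centromere protein, differed by 1.85 in RG and 0.31 in G (0.0215), Chek1, a checkpoint kinase of replication, by 1.51 and 0.21 (0.0452) and Foxq1, a forkhead factor, by 1.57 and -0.13 (0.0345).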
